A study of Mus musculus with 6 samples.

Results

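The genes described here encode proteins of the pre-mRNA splicing machinery: the spliceosomal Sm and snRNP proteins, the SF3A and SF3B complexes, the PRP factors, the SR and SRRM proteins and the heterogeneous nuclear ribonucleoproteins (hnRNPs). They were taken by name, as the 70 of 23505 rows of the deposited count table that begin with Prpf, Sf3a, Sf3b, Snrp, Srsf, Srrm or Hnrnp and carry no numbered suffix, and 63 of the 70 had enough counts to be tested. RNA was sequenced from liver CD4+ T cells of wild-type mice after concanavalin A (ConA), a lectin that drives T cells into activation and is used to model hepatitis. The ConA+SIM group (3 libraries) was gavaged with simvastatin, a cholesterol-lowering inhibitor of HMG-CoA reductase, at 30 mg/kg. The ConA group (3 libraries) was gavaged with phosphate-buffered saline, so ConA itself was common to all 6 libraries and there was no group without it. Doses were given on each of 5 days ahead of ConA, again 1 h ahead of it, and finally 24 h later. The sort kept CD3+ CD4+ cells that lacked CD8 and the NK cell antigen NK1.1. The sources used here do not give strain, sex, age, the dose of ConA or whether animals were pooled.

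Splicing removes introns from nuclear pre-mRNA. Small nuclear ribonucleoproteins (snRNPs), each a small RNA wrapped by a ring of Sm proteins with further proteins of its own, recognise the splice sites and the branch point, and the PRP factors help to rearrange them into the active spliceosome. SR proteins, named for their arginine and serine repeats, mostly bind exons and favour their use, whereas hnRNPs often act against them. In T cells this choice is known to change on activation, the classical example being the variable exons of the phosphatase CD45.

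Total counts ran from 17549429 to 20441213 in the ConA+SIM libraries and from 18360352 to 25031862 in the ConA libraries, of which the 70 rows together took 1.49% to 1.59% and 1.58% to 1.81%. CPM are counts scaled to the library total after TMM normalization, and fold changes are ConA+SIM over ConA. T cell markers were present, and 4 of 7 were higher in ConA+SIM. Cd4 stood at 562, 441 and 469 CPM in the ConA+SIM libraries and 545, 485 and 766 CPM in the ConA libraries, which overlapped. Cd3d at 617 ± 76.4 CPM in ConA+SIM and 361 ± 79.7 CPM in ConA and Cd3g at 885 ± 104 CPM in ConA+SIM and 569 ± 118 CPM in ConA (SD, n = 3 each) lay above ConA without overlap (adjusted p = 0.286 and 0.377). ConA+SIM replicate 2 stood apart, since 18.4% of tested genes had no count in it, beside 2.76% to 9.98% elsewhere. Ribosomal protein rows took 14.6% to 16.7% of the counts in ConA+SIM and 8.71% to 10.4% in ConA. Markers of other cells differed as well. The 10 markers of NK cells and group 1 innate lymphoid cells summed to 658 to 931 CPM in ConA+SIM and 328 to 473 CPM in ConA; 7 of 8 tested markers were higher. One was Klrb1c, the gene of NK1.1, at 42.0 ± 2.58 CPM in ConA+SIM and 14.8 ± 7.09 CPM in ConA (SD, n = 3 each), without overlap (adjusted p = 0.672). The NK cell markers Ncr1 and Klra8 were listed at 0 in every library. The widely expressed splicing genes Sf1 and Celf1 were too, so a 0 here does not show that a gene was not expressed. The 7 erythroid and platelet markers summed to 229 to 343 CPM in ConA+SIM and 44.3 to 115 CPM in ConA. Of these, 5 of 5 tested were higher, and Ppbp was at 0 throughout. The globin gene Hbb-bs stood at 171 ± 55.9 CPM in ConA+SIM and 40.8 ± 7.25 CPM in ConA (SD, n = 3 each), without overlap. It was the sole marker of any list to pass an adjusted p of 0.05 in the edgeR test (adjusted p = 0.0485). The 5 neutrophil markers summed to 583 to 932 CPM in ConA+SIM and 274 to 455 CPM in ConA. Most of that sum came from the 2 of 4 tested that were higher, S100a8 and S100a9. Their means were 283 and 414 CPM in ConA+SIM and 106 and 180 CPM in ConA. Csf3r (51.9 CPM in ConA+SIM, 80.0 CPM in ConA) and Retnlg (11.4 and 15.5 CPM) were lower with overlap, and Ly6g was at 0 throughout. The sums of the other lists overlapped between the groups. Among them, 9 of 9 endothelial markers were lower in ConA+SIM (median log2 fold change -0.90), 2 of them at an unadjusted p under 0.05. Of 10 tested macrophage and monocyte markers 8 were lower (median -0.97), C1qa and Cd68 without overlap, and 2 were higher. Ly6c2, 1 of those 2, was higher without overlap, at 460 ± 103 CPM in ConA+SIM and 231 ± 54.8 CPM in ConA (SD, n = 3 each, adjusted p = 0.237). It was the only marker of that list with an unadjusted p under 0.05 (edgeR test). Higher in ConA+SIM were 5 of 7 hepatocyte, 5 of 6 B and plasma cell and 1 of 2 CD8 T cell markers. The part of these differences in the values below was not tested, and in bulk RNA fewer cells of a type and less RNA per cell cannot be told apart.

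The splicing genes had values in both directions. Values in ConA+SIM were above ConA for 35 of the 63 tested members (55.6%, beside 48% of all tested genes) and below it for 28. Their median log2 fold change was 0.046 beside -0.041 over all 10509 tested genes. None of the 63 passed an adjusted p of 0.05 over all tested genes (edgeR quasi-likelihood test), where 0.542% of all tested genes passed. The smallest adjusted p among the 63 was 0.0623. Of the 57 genes that passed, 38 were ribosomal protein rows. With the ribosomal protein rows left out, 0 genes passed. At an unadjusted p under 0.05 there were 17 members, 27.0% of those tested, beside 8.85% of all tested genes; 11 of them were higher and 6 lower, where the background was 5.31% and 3.54%. The ranges of the groups were apart in 23 members, 36.5% of those tested, beside 17.8% of all tested genes: ConA+SIM lay above ConA in 14 members and below it in 9, where the background was 9.18% and 8.57%. The members varied less between replicates than most genes, with a median biological coefficient of variation of 0.313 beside 0.743 over all tested genes, and the part of that in these shares was not tested. The count of calls depended on the tool. DESeq2 called 9 members higher and 6 lower, 26.3% of the 57 to which it gave an adjusted p. Of all genes with one it called 10.6%, made up of 6.78% higher and 3.82% lower. The limma-voom method called 2 higher (Snrpb2 and Srsf3) and 2 lower (Prpf8 and Srrm1), 6.35% of members, beside 1.09% of all tested genes (1.03% higher and 0.0666% lower). With quality weights it called Snrpb2, Srsf3 and Prpf8, where 1.08% of all tested genes were called (1.05% higher and 0.0381% lower).

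**Figure D1:**
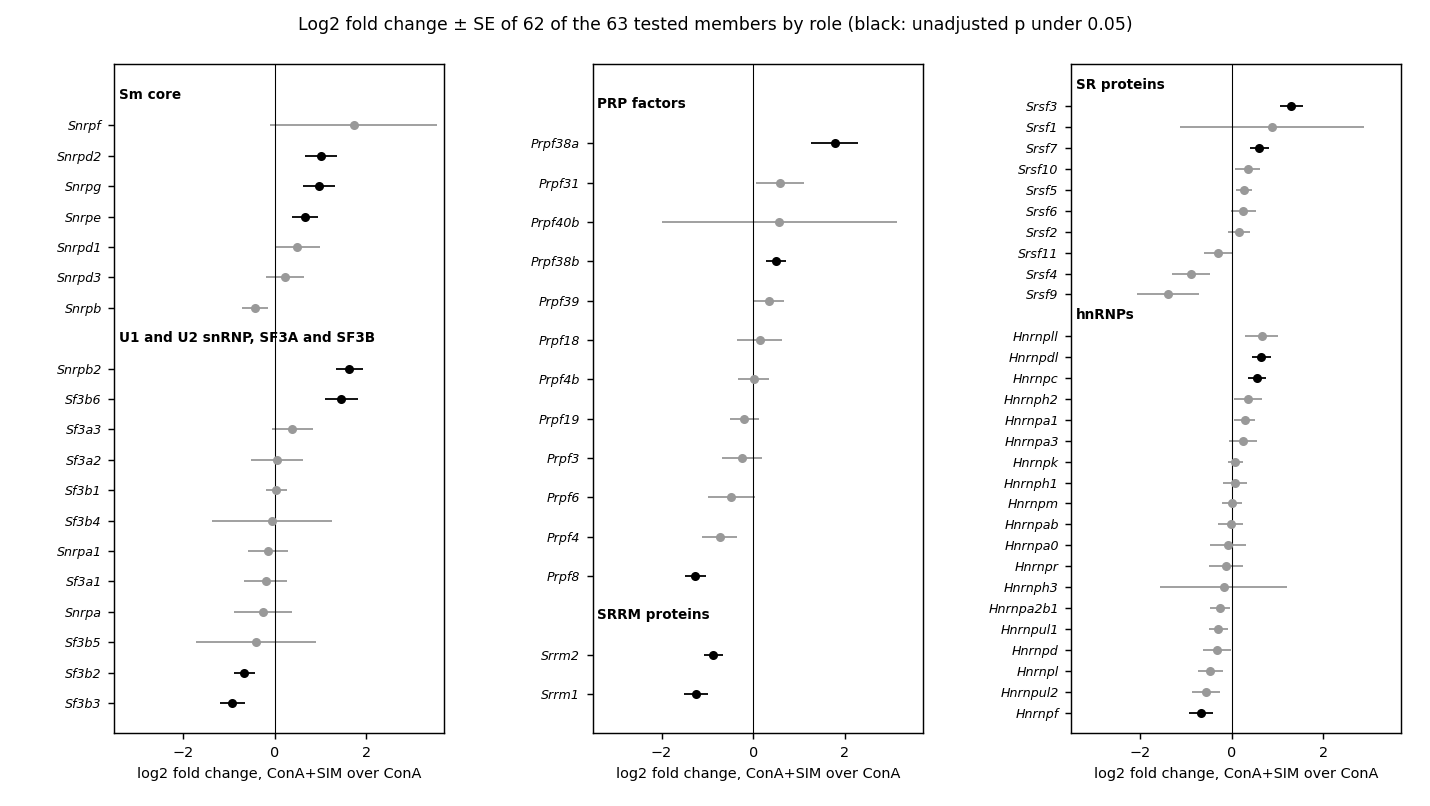
Log2 fold change, ConA+SIM over ConA, of 62 of the 63 tested members in 6 role groups; bars are SE from the edgeR fit (n = 3 libraries per group) and black points have an unadjusted p under 0.05. Points run from -1.40 (Srsf9) to 1.78 (Prpf38a), and 36 of those drawn lie within 0.5 of 0.

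The Sm proteins form the ring that all major spliceosomal snRNPs except U6 share, and 6 of 7 tested Sm genes had higher values in ConA+SIM, with a median log2 fold change of 0.66. Snrpd2, encoding SmD2, stood at 143, 123 and 122 CPM in ConA+SIM replicates 1 to 3, against 46.2, 62.5 and 84.7 CPM in ConA replicates 1 to 3. The 3 treated values lay above all 3 vehicle values, with a log2 fold change of 1.00 ± 0.35 (adjusted p = 0.392). Snrpg, encoding SmG, stood at 314, 181 and 332 CPM in ConA+SIM replicates 1 to 3, against 133, 95.8 and 198 CPM in ConA replicates 1 to 3. There the groups overlapped, since ConA+SIM replicate 2 lay below ConA replicate 3, and the log2 fold change was 0.96 ± 0.35 (adjusted p = 0.419). Snrpe, encoding SmE, stood at 202, 146 and 201 CPM in ConA+SIM replicates 1 to 3, against 101, 110.3 and 137 CPM in ConA replicates 1 to 3, again without overlap (log2 fold change 0.66 ± 0.28, adjusted p = 0.535). Snrpf, encoding SmF, was the least abundant, at 26.5, 39.3 and 20.1 CPM in ConA+SIM replicates 1 to 3, against 6.48, 0 and 19.6 CPM in ConA replicates 1 to 3. The 0 counts in ConA replicate 2 allow up to 0.151 CPM, and the SE of 1.82 exceeded the log2 fold change of 1.72. Snrpd1 and Snrpd3 overlapped between the groups, with log2 fold changes of 0.49 and 0.22. Snrpb, the gene of SmB and its splice variant SmB′, was the sole tested Sm gene with lower values, at 127 ± 19.7 CPM in ConA+SIM and 172 ± 35.7 CPM in ConA (SD, n = 3 each; log2 fold change -0.43 ± 0.28, adjusted p = 0.839). Snrpn, an imprinted relative of Snrpb expressed mainly in brain, had 0 counts in all 6 libraries. Its annotated exons overlap those of Snurf and Gm38393, and a 0 in these counts does not show that a gene was not expressed. The summed level of the Sm genes was 1146, 728 and 1136 CPM in ConA+SIM replicates 1 to 3 and 723, 513 and 869.6 CPM in ConA replicates 1 to 3, so that ConA+SIM replicate 2 fell inside the ConA range.

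The proteins particular to the U1 and U2 snRNPs and to SF3A and SF3B, the complexes that seat U2 on the branch point, included members at both ends of the range. Snrpb2, which encodes the U2 snRNP protein U2B″ (chromosome 2, 143063069 to 143072052, GRCm38), stood at 279.5, 182 and 229 CPM in ConA+SIM replicates 1 to 3, against 60.1, 91.5 and 71.9 CPM in ConA replicates 1 to 3. The lowest treated library was above the highest vehicle library, and the means were 230.2 ± 48.9 CPM in ConA+SIM and 74.5 ± 15.9 CPM in ConA (SD, n = 3 each), a log2 fold change of 1.63 ± 0.30 (adjusted p = 0.0623). Sf3b6, the small SF3B subunit that lies next to the branch-point adenosine (chromosome 12, 4817608 to 4827659), stood at 449.8, 402 and 213 CPM in ConA+SIM replicates 1 to 3, against 165, 82.8 and 141 CPM in ConA replicates 1 to 3. Its groups did not overlap either, although ConA+SIM replicate 3 was well below the rest of its group (log2 fold change 1.45 ± 0.36, adjusted p = 0.205). Sf3b3 and Sf3b2, larger subunits of the same complex, had lower values. Sf3b3 (chromosome 8, 110810491 to 110846806) stood at 112, 95.2 and 154 CPM in ConA+SIM replicates 1 to 3, against 238, 208 and 239 CPM in ConA replicates 1 to 3, with no overlap (log2 fold change -0.92 ± 0.27, adjusted p = 0.316). Sf3b2 stood at 284, 225 and 198 CPM in ConA+SIM replicates 1 to 3, against 380.0, 353 and 386 CPM in ConA replicates 1 to 3, also with no overlap (log2 fold change -0.66 ± 0.22, adjusted p = 0.388). Sf3b1, the subunit that clamps the branch-point helix and is recurrently mutated in human myelodysplasia, had the highest CPM of the SF3 genes, at 1122, 1253 and 1772 CPM in ConA+SIM replicates 1 to 3, against 1344, 1649 and 1056 CPM in ConA replicates 1 to 3. Its groups overlapped fully (log2 fold change 0.034 ± 0.23, adjusted p = 0.999).

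The other U1 and U2 genes gave wide spreads. The groups overlapped in Snrpa of the U1 snRNP, Snrpa1 of the U2 snRNP, Sf3a1, Sf3a2 and Sf3a3, with log2 fold changes from -0.25 to 0.39. A pair of SF3B genes nearly vanished in 1 library each. Sf3b5 had 1049, 2 and 1136 counts in ConA+SIM replicates 1 to 3, against 1777, 685 and 1123 counts in ConA replicates 1 to 3. Sf3b4 had 369, 1064 and 231 counts in ConA+SIM replicates 1 to 3, against 1217, 6 and 1156 counts in ConA replicates 1 to 3. Their log2 fold changes were -0.41 ± 1.31 and -0.063 ± 1.31, SE well above the difference itself. Of the 12 tested genes in this group 5 were higher and 7 lower, with a median of -0.11.

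The PRP factors include Prpf8, one of the largest spliceosome proteins, whose gene had the smallest p among members with lower values. Prpf8, the U5 snRNP protein at the catalytic centre (chromosome 11, 75486777 to 75509447), stood at 183, 240.2 and 156 CPM in ConA+SIM replicates 1 to 3, against 521, 419 and 449 CPM in ConA replicates 1 to 3. Every treated library was below every vehicle library, with means of 193 ± 43.1 CPM in ConA+SIM and 463 ± 52.3 CPM in ConA (SD, n = 3 each) and a log2 fold change of -1.26 ± 0.24 (adjusted p = 0.0652). Prpf38a, whose yeast counterpart is needed to activate the assembled spliceosome (chromosome 4, 108564867 to 108579336), stood at 127, 73.5 and 86.2 CPM in ConA+SIM replicates 1 to 3, against 38.8, 13.2 and 31.4 CPM in ConA replicates 1 to 3. It had the largest log2 fold change of all tested members, 1.78 ± 0.51 (adjusted p = 0.302). Its relative Prpf38b stood at 336, 285 and 272 CPM in ConA+SIM replicates 1 to 3, against 205, 196 and 230.0 CPM in ConA replicates 1 to 3, likewise without overlap (log2 fold change 0.50 ± 0.22, adjusted p = 0.552). Prpf4, of the U4/U6 snRNP, had lower values without overlap, at 46.9 ± 2.97 CPM in ConA+SIM and 78.2 ± 13.2 CPM in ConA (SD, n = 3 each; log2 fold change -0.74 ± 0.39, adjusted p = 0.686). The other 9 PRP genes overlapped between the groups. They included Prpf3 and Prpf31 of the U4/U6 snRNP (-0.25 and 0.58), Prpf6 of the tri-snRNP (-0.48), the ubiquitin ligase gene Prpf19 (-0.19), the kinase gene Prpf4b (0.0046) and the U1-associated gene Prpf39 (0.33), all as log2 fold changes. Over the 13 PRP genes 8 were higher and 5 lower, with a median of 0.14.

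Among the SR proteins Srsf3 had the smallest p. Srsf3, a short SR protein with roles in splicing, mRNA export and polyadenylation (chromosome 17, 29032660 to 29043372), stood at 231, 259 and 240.4 CPM in ConA+SIM replicates 1 to 3, against 93.4, 94.1 and 109 CPM in ConA replicates 1 to 3. The groups were far apart, with means of 243 ± 14.3 CPM in ConA+SIM and 98.8 ± 8.78 CPM in ConA (SD, n = 3 each) and a log2 fold change of 1.30 ± 0.24 (adjusted p = 0.0655). A further row of the table, Srsf3_1, carries the same symbol and had 231, 123 and 3413 counts in ConA+SIM replicates 1 to 3, against 2426, 85 and 124 counts in ConA replicates 1 to 3. That row was high in 1 library of each group and low in the other libraries; with the rows summed, the log2 fold change of Srsf3 was 1.18 (adjusted p = 0.291). Srsf7, a close relative of Srsf3 and likewise an adaptor of mRNA export, stood at 489.6, 405 and 437 CPM in ConA+SIM replicates 1 to 3, against 336, 269.5 and 274 CPM in ConA replicates 1 to 3. It was higher in every treated library (log2 fold change 0.60 ± 0.20, adjusted p = 0.392).

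The remaining SR genes had values in both directions. Srsf9 had lower values without overlap, at 33.5, 8.11 and 17.7 CPM in ConA+SIM replicates 1 to 3, against 55.4, 44.7 and 56.1 CPM in ConA replicates 1 to 3 (log2 fold change -1.40 ± 0.68, adjusted p = 0.641). Srsf4 stood at 57.6, 59.6 and 64.1 CPM in ConA+SIM replicates 1 to 3, against 154, 56.6 and 125 CPM in ConA replicates 1 to 3. The treated libraries were close to each other and to ConA replicate 2, and ConA replicates 1 and 3 were higher (log2 fold change -0.89 ± 0.42, adjusted p = 0.622). Srsf5, the SR gene with the highest level per length, did not overlap between groups at 624 ± 15.2 CPM in ConA+SIM and 516 ± 53.6 CPM in ConA (SD, n = 3 each), a log2 fold change of 0.27 ± 0.17 (adjusted p = 0.827). Srsf2, the speckle protein SC35, was at 324 ± 86.0 CPM in ConA+SIM and 293 ± 19.2 CPM in ConA and overlapped (log2 fold change 0.15 ± 0.24). Srsf6, Srsf10 and Srsf11 overlapped too, with log2 fold changes of 0.25, 0.34 and -0.31. Srsf1, the founding SR protein, had only 111 to 265 counts in its plain row, and a further row, Srsf1_2, had 147, 46 and 175 counts in ConA+SIM replicates 1 to 3, against 297, 257 and 161 counts in ConA replicates 1 to 3. With its rows summed the log2 fold change was 0.072, instead of 0.88 ± 2.01 for the plain row. Srsf12 had at most 22 counts in a library and was not tested. Over the 10 tested SR genes 7 were higher and 3 lower, with a median of 0.26.

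Both tested SRRM genes had lower values in all 3 treated libraries. They encode the large arginine and serine rich splicing coactivators SRm160 and SRm300, the second of which is a scaffold of nuclear speckles. Srrm1 (chromosome 4, 135320484 to 135353277) stood at 135, 125 and 189 CPM in ConA+SIM replicates 1 to 3, against 337, 429 and 302 CPM in ConA replicates 1 to 3. The means were 149.6 ± 34.2 CPM in ConA+SIM and 356 ± 65.5 CPM in ConA (SD, n = 3 each), a log2 fold change of -1.25 ± 0.26 (adjusted p = 0.108). Srrm2 (chromosome 17, 23790527 to 23824741) stood at 392, 418 and 467 CPM in ConA+SIM replicates 1 to 3, against 661, 950.0 and 727 CPM in ConA replicates 1 to 3. Its log2 fold change was -0.87 ± 0.20 (adjusted p = 0.158), and its annotated exons overlap those of Elob. Their relatives Srrm3 and Srrm4, which act on neuronal microexons, had 0 counts in every library.

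**Figure D2:**
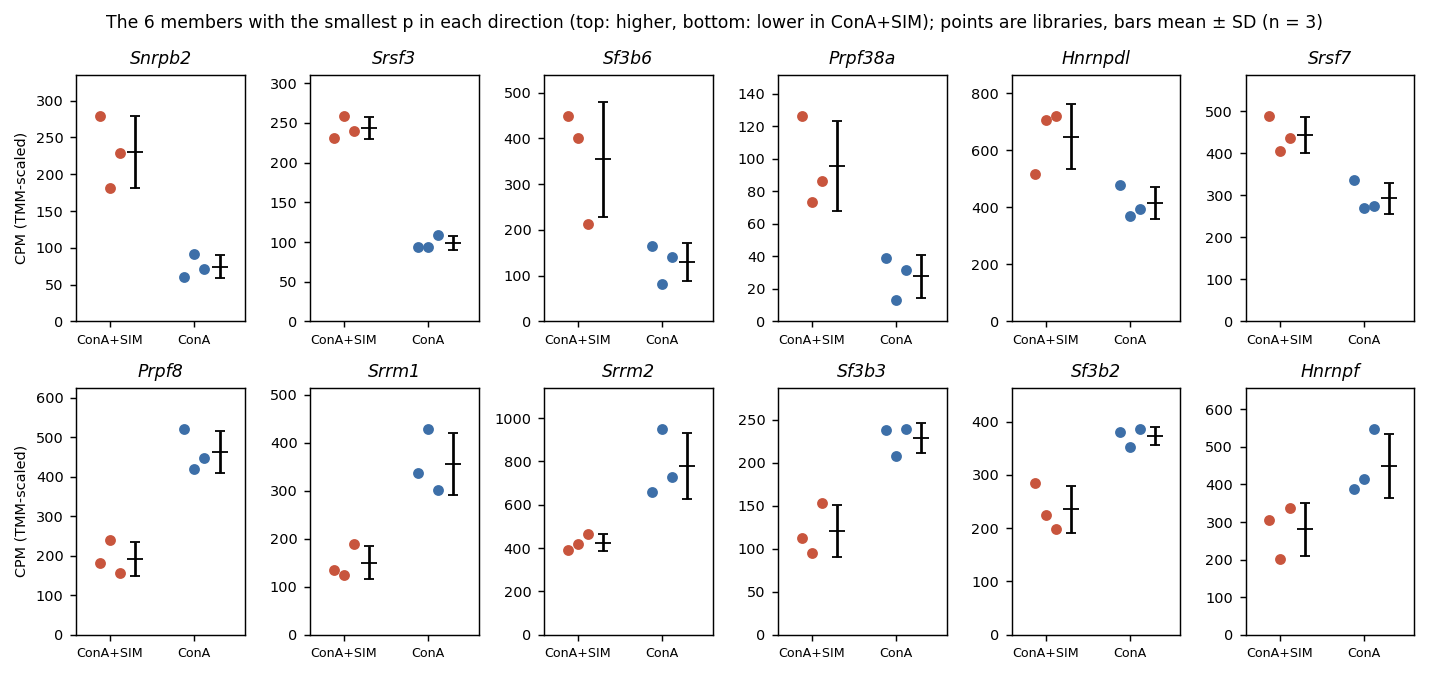
CPM in each library for the 6 members with the smallest p among those higher (top) and the 6 among those lower in ConA+SIM (bottom); points are libraries and bars are mean ± SD (n = 3 per group). In all 12 panels the ConA+SIM and ConA points do not overlap, with Srsf3 at 231 to 259 CPM in ConA+SIM and 93.4 to 109 CPM in ConA.

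The hnRNP genes had the highest summed CPM of the 6 role groups and the median nearest to 0. Of 19 tested, 9 were higher and 10 lower, with a median log2 fold change of -0.028 and a range from -0.68 to 0.65. Hnrnpdl, a relative of the RNA-binding protein AUF1, stood at 516, 705 and 721 CPM in ConA+SIM replicates 1 to 3, against 477, 370.4 and 396 CPM in ConA replicates 1 to 3. Hnrnpc, which binds uridine tracts of nascent transcripts, stood at 754, 733 and 825 CPM in ConA+SIM replicates 1 to 3, against 481, 458 and 650.2 CPM in ConA replicates 1 to 3. Neither overlapped between the groups, with log2 fold changes of 0.64 ± 0.21 (adjusted p = 0.377) and 0.54 ± 0.20 (adjusted p = 0.413). Hnrnpf, which binds guanine runs, stood at 304, 202 and 336 CPM in ConA+SIM replicates 1 to 3, against 387, 413 and 548 CPM in ConA replicates 1 to 3. It was lower without overlap (log2 fold change -0.68 ± 0.26, adjusted p = 0.449).

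Hnrnpll encodes the hnRNP known in activated and memory T cells for silencing the variable exons of CD45. It stood at 76.9, 139 and 96.4 CPM in ConA+SIM replicates 1 to 3, against 66.2, 60.9 and 71.6 CPM in ConA replicates 1 to 3. The treated libraries were all higher, with ConA+SIM replicate 2 the highest, and the log2 fold change was 0.65 ± 0.36 (adjusted p = 0.73). Its paralog Hnrnpl, which also acts on CD45 exons, stood at 516, 319 and 334 CPM in ConA+SIM replicates 1 to 3, against 627, 375 and 612 CPM in ConA replicates 1 to 3. These values overlapped (log2 fold change -0.47 ± 0.28, adjusted p = 0.791). Counts per gene do not show which CD45 exons were used. Hnrnpul2, of the scaffold attachment factor family, overlapped likewise at 316 ± 124 CPM in ConA+SIM and 467 ± 76.3 CPM in ConA (SD, n = 3 each; log2 fold change -0.56 ± 0.31, adjusted p = 0.732).

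The groups overlapped in the abundant shuttling hnRNPs. Hnrnpk, which binds cytosine-rich RNA, was at 775 ± 52.6 CPM in ConA+SIM and 737 ± 19.1 CPM in ConA (SD, n = 3 each), with a log2 fold change of 0.072 ± 0.16, the smallest SE of any member. Hnrnpa1, an antagonist of SR proteins, was at 827 ± 247 CPM in ConA+SIM and 682 ± 58.4 CPM in ConA (log2 fold change 0.28 ± 0.24). The value for Hnrnpa1 was 0.49 without ConA+SIM replicate 2 and 0.068 without ConA+SIM replicate 3. Hnrnpa2b1 had the highest level per length of all 63 members in each group, 675 CPM per kilobase of transcript in ConA+SIM and 812 in ConA, and its log2 fold change was -0.27 ± 0.22. Many hnRNP genes have processed pseudogenes, and the sources used here do not say how multiply mapped reads were handled, so these levels are uncertain. The pseudogene-named row Hnrnpa1l2-ps2 had 161 counts in ConA replicate 2 and at most 4 in any other library.

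For 4 symbols the name rule and the table interact. The plain rows of Snrpc, of the U1 snRNP, and Hnrnpu, an abundant nuclear scaffold protein, held at most 2 and 6 counts in a library and were not tested, whereas the suffixed rows Snrpc_1 and Hnrnpu_1 held the reads of those symbols. Snrpc_1 had 19, 747 and 430 counts in ConA+SIM replicates 1 to 3, against 426, 310 and 269 counts in ConA replicates 1 to 3. Hnrnpu_1 had 2309, 555 and 654 counts in ConA+SIM replicates 1 to 3, against 1079, 900 and 2476 counts in ConA replicates 1 to 3. ConA+SIM replicate 1 was far below the rest for Snrpc_1, and for Hnrnpu_1 each group had 1 library far above its others. With the rows summed the log2 fold changes were 0.60 (Snrpc) and 0.0086 (Hnrnpu), neither near the threshold. Annotated exons of 14 of the 63 tested members overlap exons of another protein-coding gene, among them Sf3b3, Srrm2, Srsf2, Hnrnpk and Hnrnpul2. No source used here states the strand setting, so reads of such neighbours cannot be told apart.

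To show the start regions of the 4 genes that limma-voom called, their promoter windows from RefSeq (GRCm38.p6; 250 bases before to 50 bases after the annotated start, 5′ to 3′ on the gene's strand) are printed here, Snrpb2 and Srsf3 with higher and Prpf8 and Srrm1 with lower values in ConA+SIM. Capitals mark matches, on either strand, to the ETS core CCGGAA, the GC box GGGCGG, the CCAAT box CCAAT and the TATA box TATAAA.
Snrpb2 (chr2:143062819-143063118, plus strand): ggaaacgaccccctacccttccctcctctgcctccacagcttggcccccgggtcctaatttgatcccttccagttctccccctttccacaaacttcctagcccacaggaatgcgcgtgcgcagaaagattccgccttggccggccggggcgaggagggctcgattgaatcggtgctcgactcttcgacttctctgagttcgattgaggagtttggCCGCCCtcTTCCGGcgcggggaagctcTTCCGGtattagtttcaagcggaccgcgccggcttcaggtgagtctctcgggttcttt
Srsf3 (chr17:29032410-29032709, plus strand): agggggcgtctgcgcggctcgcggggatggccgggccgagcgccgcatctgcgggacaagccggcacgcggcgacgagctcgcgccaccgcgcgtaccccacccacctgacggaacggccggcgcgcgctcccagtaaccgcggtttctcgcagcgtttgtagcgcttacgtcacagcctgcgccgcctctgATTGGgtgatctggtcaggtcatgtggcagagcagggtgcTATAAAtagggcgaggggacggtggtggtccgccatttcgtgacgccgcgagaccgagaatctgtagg
Prpf8 (chr11:75486527-75486826, plus strand): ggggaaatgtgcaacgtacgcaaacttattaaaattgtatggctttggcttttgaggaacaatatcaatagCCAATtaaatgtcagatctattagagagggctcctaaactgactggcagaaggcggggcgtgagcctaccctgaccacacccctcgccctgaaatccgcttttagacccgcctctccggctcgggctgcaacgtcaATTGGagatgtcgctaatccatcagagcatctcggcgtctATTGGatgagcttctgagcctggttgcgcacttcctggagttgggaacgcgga
Srrm1 (chr4:135353097-135353396, minus strand): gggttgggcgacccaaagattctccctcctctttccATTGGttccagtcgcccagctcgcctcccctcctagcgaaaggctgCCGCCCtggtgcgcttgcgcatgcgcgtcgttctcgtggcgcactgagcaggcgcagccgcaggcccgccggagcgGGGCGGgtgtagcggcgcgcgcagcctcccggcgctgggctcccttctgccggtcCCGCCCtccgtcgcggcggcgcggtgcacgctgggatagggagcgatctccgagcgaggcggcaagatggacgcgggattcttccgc
The start used for the Srrm1 window lay inside the gene coordinates given above (135320484 to 135353277), not at their end. The higher pair had no motif in common, and the CCAAT box, found in both of the lower pair, also stood in Srsf3. The Snrpb2 window held 2 ETS cores and 1 GC box, that of Srsf3 1 CCAAT box and 1 TATA box, that of Prpf8 3 CCAAT boxes, and that of Srrm1 3 GC boxes and 1 CCAAT box. Of the tested members, 55 were matched in the table, with 73 windows. An ETS core stood in 46.6% of these windows, beside 29.0% of the 10528 windows of tested genes and 14.9% of all 32851 windows. The shares for the GC box were 65.8%, 62.4% and 35.7%, for the CCAAT box 49.3%, 37.9% and 37.4% and for the TATA box 8.22%, 7.14% and 13.6%. By direction, 11 windows of 11 genes belonged to members higher at an unadjusted p under 0.05, and 11 windows of 6 genes to those lower. The ETS core stood in 6 of the higher and 6 of the lower windows, the GC box in 7 and 4, the CCAAT box in 5 and 7 and the TATA box in 1 and 1. A match is a string of letters, not a binding site.

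Members with higher values mostly had shorter coding sequences than those with lower values, with some overlap. The 11 members higher at an unadjusted p under 0.05 had coding lengths of 228 to 1626 nt (median 675 nt) and a transcript GC content of 39.4% to 52.3% (median 44.6%). The 6 lower members had coding lengths of 1245 to 8109 nt (median 3210.0 nt) and a GC content of 49.0% to 54.3% (median 51.9%). Across the 63 tested members, Spearman's rho between log2 fold change and coding length was -0.47, and with GC content -0.46. Across tested genes as a whole the same values were -0.26 (10409 genes with a coding length) and -0.24 (10460 genes). With transcript length, the length corrected for below, rho was -0.36 across the 63 tested members and -0.23 across 10460 tested genes. These are descriptions across genes measured in the same 6 libraries, and genes are not independent replicates.

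**Figure D3:**
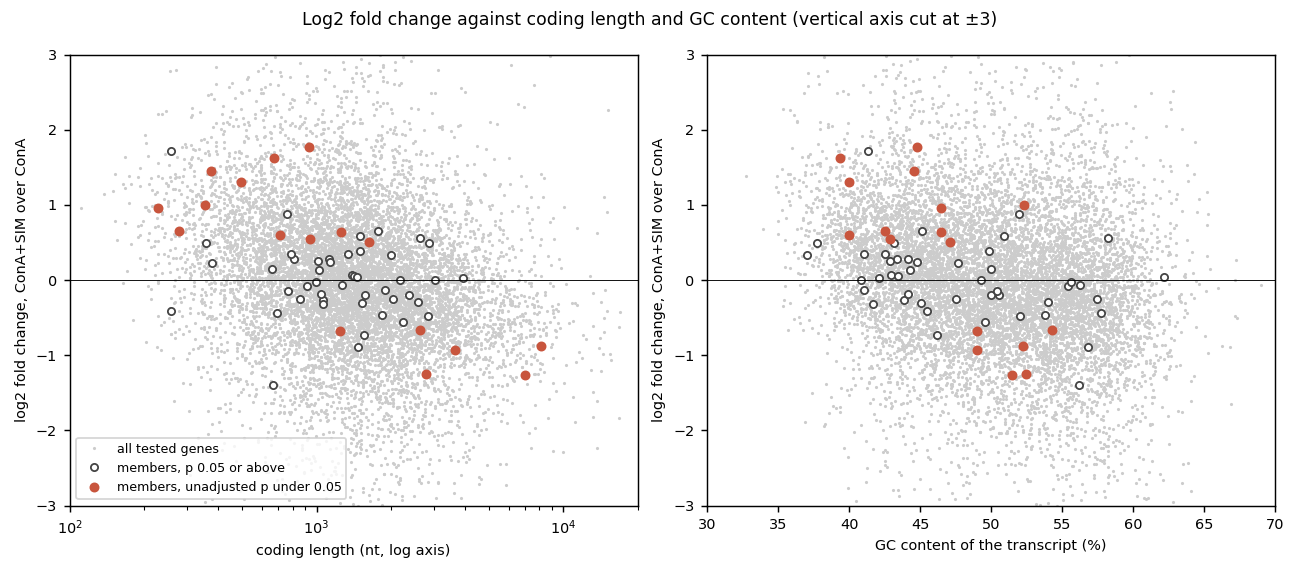
Log2 fold change, ConA+SIM over ConA, against coding length (left, log axis) and transcript GC content (right) for all tested genes (grey) and the members (circles; filled, unadjusted p under 0.05). Filled members above 0 lie at coding lengths of 228 to 1626 nt and those below 0 at 1245 to 8109 nt.

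Offsets fitted per library to take out a trend with transcript length, alone or with GC content, reduced several of these differences and left others. With both, the log2 fold change was -0.75 for Prpf8, -0.96 for Srrm1, -0.28 for Srrm2 and -0.30 for Sf3b2. Among members with higher values it was 0.91 for Snrpb2, 0.80 for Srsf3, 0.95 for Sf3b6 and 1.34 for Prpf38a. Srsf7 came to 0.0024, and Snrpe turned to -0.19 with length and -0.61 with both. Snrpd2 (1.00) and Hnrnpdl (0.64) were close to their uncorrected values. Of the 17 members, 16 kept their direction under each correction. At an unadjusted p under 0.05 there were 18 members after length correction, 28.6% beside 7.17% of all tested genes. After length and GC correction there were 13, 20.6% beside 5.15%. No gene of the whole table passed the adjusted threshold under either correction.

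**Figure D4:**
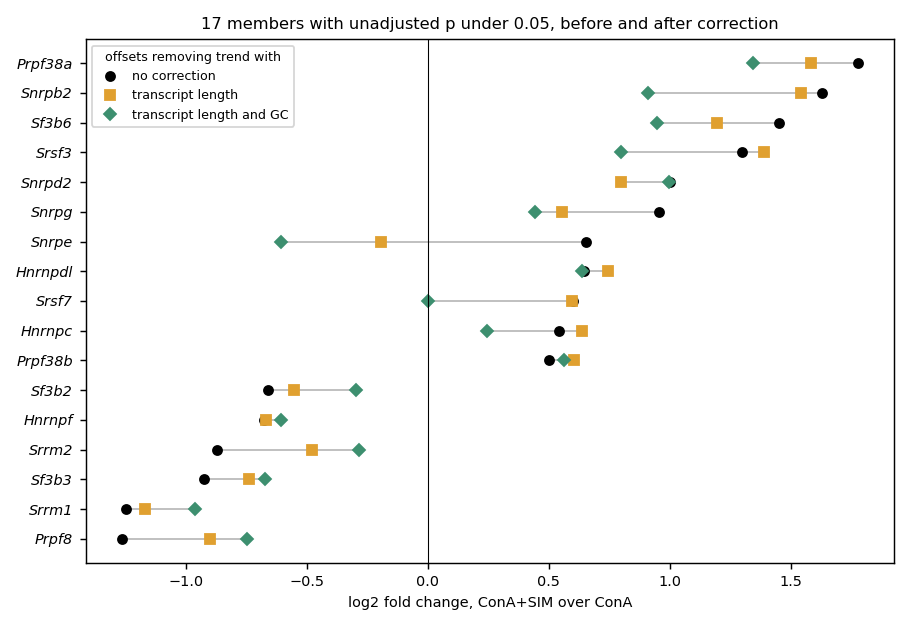
Log2 fold change, ConA+SIM over ConA, of the 17 members with an unadjusted p under 0.05 (rows, largest at the top) without correction, after length correction and after length and GC correction. Snrpe is the sole member to cross 0, from 0.66 without correction to -0.61 with both.

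Other genes of the pathway, outside the name rule, numbered 116 tested, of which 0 passed the edgeR threshold. At an unadjusted p under 0.05, 16 were higher (13.8%, beside 5.31% of all tested genes) and 9 lower (7.76%, beside 3.54%). DESeq2 called 12 higher and 4 lower of the 98 to which it gave an adjusted p (16.3%, beside 10.6% of all genes with one). The limma-voom method called 1, Clk1 (0.862%, beside 1.09%), and with quality weights 2, Clk1 and Matr3 (1.72%, beside 1.08%). Of 54 tested snRNP and spliceosome proteins 30 were higher and 24 lower (median log2 fold change 0.13), of 43 splicing regulators and SR protein kinases 21 and 22 (median -2.7e-04), and of 19 exon junction and mRNA export genes 11 and 8 (median 0.038). The smallest p belonged to Clk1, a kinase that phosphorylates SR proteins, at 1237, 1959 and 1081 CPM in ConA+SIM replicates 1 to 3, against 569, 653 and 488 CPM in ConA replicates 1 to 3. All treated libraries were higher (log2 fold change 1.32 ± 0.25, adjusted p = 0.0637), as they were for its relative Clk4, at 257 ± 26.3 CPM in ConA+SIM and 147 ± 32.8 CPM in ConA (SD, n = 3 each; 0.80 ± 0.26, adjusted p = 0.374). Snrnp200, the U5 helicase that works beside Prpf8, stood at 106, 159.7 and 156 CPM in ConA+SIM replicates 1 to 3, against 223, 245 and 294 CPM in ConA replicates 1 to 3. It was lower in every treated library (-0.86 ± 0.27, adjusted p = 0.356). Eif4a3, the helicase of the exon junction complex, was lower without overlap at 101 ± 11.6 CPM in ConA+SIM and 206 ± 14.1 CPM in ConA (SD, n = 3 each; -1.03 ± 0.26, adjusted p = 0.202). Its partner Magoh was higher without overlap at 215 ± 59.3 CPM in ConA+SIM and 97.6 ± 28.9 CPM in ConA (1.14 ± 0.34, adjusted p = 0.316). Lsm8, of the ring that binds U6 RNA, had a log2 fold change of 1.26 ± 0.37, and Bud31, a small spliceosome protein, one of 1.44 ± 0.32, each without overlap. These genes were chosen for naming after their values were seen.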

How the data were processed

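For 6 libraries the authors deposited unnormalized counts, as whole numbers per gene symbol. HISAT2 2.1.0 and build GRCm38 are named in the submitters' processing notes; the sources used here do not give the counting tool, annotation, strand setting or dates. Columns were matched to samples by title, and 0 columns were left unused. Whether replicates were different animals is not in the labels; p-values therefore measure a spread that may be technical. Replicate pairs were not copies of each other: their chi-square statistic was 147 to 305 times its degrees of freedom.

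Genes kept by filterByExpr (10509) were scaled with TMM factors and tested with the robust quasi-likelihood F test of edgeR 4.0.16 (R 4.3.3), with no covariates, fold changes being ConA+SIM over ConA, with Benjamini-Hochberg adjustment over all tested genes and a threshold of 0.05. The SE is the log2 fold change divided by the square root of F. A count of 0 allows up to 3 counts at 95% confidence (0.118 to 0.175 CPM per library), which covers counting error only. Lengths and GC content are those of the GENCODE M21 transcript with the longest coding sequence, and gene coordinates and promoters from RefSeq. Length and GC offsets were lowess trends per library (span 0.3). Alternatives used DESeq2 1.42.0 and limma 3.58.1, among others. The members and gene lists were chosen with earlier results of these data known. Named members were the 10 with the smallest p in each direction and a fixed list, which added 8 (28 in all, 27 of them tested); others were named after their values were seen. Simulated data of 10509 genes were made for ConA+SIM over ConA, with log2 fold changes of either sign. Of genes given a change of 2, 14% were called, and of those given 1, 0%, with 2 false calls. The changed genes were drawn from all tested genes. The members varied less between replicates, so these shares do not show how often such changes would be called among them. The values of 1 tested member are not reported here; it stays in the counts.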

Additional observations from a re-analysis of the deposited data

How the results depend on the processing

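No member passed the edgeR test, so none could lose a call. Over all tested genes edgeR called 57 higher and 0 lower. DESeq2 called 353 higher and 199 lower (9 and 6 members), limma-voom 108 and 7 (2 and 2 members), voom with quality weights 110 and 4 (2 and 1 members), and RLE scaling 1 lower gene. Without a filter on low counts 1 gene was lower, the member Prpf8, and 1 member, Snrpb2, was higher. There were 0 calls in either direction with length correction, with length and GC correction, with ribosomal protein genes left out and with the replicate block, where 16 members had an unadjusted p under 0.05 (25.4%, beside 7.28% of all tested genes). The labels do not say whether replicate numbers pair samples. Deviations of same-numbered libraries from their group means correlated at 0.0111, 0.0088 and 0.0328 across genes. Those of differently numbered libraries correlated at -0.0383 to 0.0181. These values do not settle whether same-numbered libraries shared a batch. Leaving out each library gave 0 to 3 higher and 0 lower genes, 0 members, and 12 to 18 members with an unadjusted p under 0.05 (19.0% to 28.6%, beside 7.13% to 9.24% of all tested genes), always with all 17 in the same direction. A filter of 5 CPM in 3 libraries and summed copy rows moved no count by over 1.5 times, and the member median moved under the spread between replicates (0.173) in all 17 alternatives. Of 459 values of 27 named members, 428 kept direction and did not pass the threshold, 24 passed it and 7 reversed. The 428 include the DESeq2 value of Srsf9, which had no adjusted p. Reversed were Snrpe (-0.19 with length, -0.61 with length and GC correction), Sf3b1 (-0.11 with length and GC correction; -0.13 without ConA replicate 3 and -0.18 without ConA+SIM replicate 3, in a leave-one-out range of -0.18 to 0.19), Srsf2 (-0.082 without ConA+SIM replicate 1, in a range of -0.082 to 0.30) and Hnrnpk (-0.19 with length and GC correction); the cause was not tested. Snrpb2 ran from 0.91 to 1.79, Srsf3 from 0.80 to 1.39, Prpf8 from -1.45 to -0.75 and Srrm1 from -1.45 to -0.96.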
